A study of Mus musculus with 18 samples.

Results

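The Hox genes of the mouse are the genes whose symbol is Hox followed by the letter of a cluster (a, b, c or d) and a number from 1 to 13. All 39 were listed in the expression tables, which hold 55401 genes. Antisense and opposite-strand genes of the clusters were not counted among them. The genes were measured by RNA-seq in 18 pools of tubules microdissected from the thick ascending limb (TAL), the nephron segment that reabsorbs salt, calcium and magnesium after the thin limbs of the loop. The kidneys came from adult male mice, labelled C57BL/6J and described in the methods as mostly of C57BL/6 background, and each pool held tubules from 1 animal that gave no other pool. The cortical part (CTAL) and the medullary part (MTAL) were sampled in 2 genotypes, with 5 WT and 5 cKO pools of the CTAL and 5 WT and 3 cKO pools of the MTAL. The MTAL came from the outer medulla (inner stripe). WT mice were *Cldn10* fl/fl littermates without Cre, and cKO mice were *Cldn10* fl/fl; Ksp-Cre, so that both genotypes carried the floxed allele of the tight junction gene *Cldn10*. The Ksp-cadherin promoter drives Cre in the distal nephron and not in the TAL alone. *Cldn10* was lower but not absent in cKO pools, at 151 to 283 CPM (counts scaled to the total of the pool) against 383 to 823 CPM in WT pools. The study had kept only cKO pools with a low level of this gene, so that it is no independent check of the labels.

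Hox genes encode homeodomain transcription factors that give cells their position along the body axis in the embryo. They lie in 4 clusters, and their order in a cluster follows their order of expression from head to tail. The Hox proteins bind DNA together with cofactors of the TALE class, Polycomb and trithorax proteins keep the clusters silent or active in later life, and retinoic acid and Cdx factors set their first expression. In the developing kidney the genes numbered 11 are needed for the kidney to form, and a promoter of *Hoxb7* is widely used to drive transgenes in the ureteric bud.

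Total counts ranged from 10824328 to 62339991 per pool, and Hox genes took from 8508 to 56283 of them. The defining TAL marker *Slc12a1*, which encodes the apical salt cotransporter, was at 11420 to 16190 CPM in every pool. The summed level of 7 TAL markers was lower in WT MTAL (50640 to 63640 CPM) than in WT CTAL (85220 to 96120 CPM), cKO CTAL (83500 to 98380 CPM) and cKO MTAL (68180 to 78740 CPM), each of the 7 at a mean of 1 CPM or more in every group. Of the 7, *Slc12a1* and *Ptger3* did not follow the sum and had their highest means in WT MTAL, at 15510 and 914 CPM. Some pools stood apart. *Xist*, which is expressed from an inactive X chromosome, reached 1 CPM or more in 7 pools of these mice described as male: 2 of WT CTAL, 1 of cKO CTAL, 4 of WT MTAL and none of cKO MTAL. The Y-chromosome gene *Ddx3y* was at 23.6 to 39.4 CPM in these 7 pools and at 32.1 to 38.4 CPM in the other 11. The collagen gene *Col1a2* was at 13.4 to 18.9 CPM in the 7 and at 1.48 to 11.35 CPM in the 11. The origin of the *Xist* RNA was not tested. In cKO MTAL pool 20 the summed level of 9 principal cell markers was 1041 CPM, against 81.6 to 369 CPM in the other 17 pools. Intercalated cell markers were also highest in that pool, at 265 CPM of a range of 22.3 to 265 CPM. Summed proximal tubule markers ranged from 14.1 to 95.8 CPM, distal convoluted tubule markers from 6.67 to 125 CPM, fibroblast and pericyte markers from 40.7 to 96.9 CPM and immune cell markers from 46.6 to 83.8 CPM. The labels of WT CTAL pool 1 conflict on its genotype, and it was counted as WT, with *Cldn10* at 446 CPM.

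The stretches before the starts of *Hoxd8*, *Hoxd9* and *Hoxa10* are shown because these were the Hox genes past the adjusted p in any comparison. They come from RefSeq, on GRCm38.p6, of which 22 of the 39 Hox genes had a window of 250 bases before the start. Each is given 5′ to 3′ on the strand of its gene, and capitals mark a match to a searched motif. *Hoxd8* and *Hoxd9* lie next to each other in cluster d on chromosome 2 and *Hoxa10* in cluster a on chromosome 6. The *Hoxd8* stretch is chr2:74704365-74704614 on the plus strand. The *Hoxd9* stretch is chr2:74697513-74697726 on the plus strand and stops where the annotated gene of the tables begins. The *Hoxa10* stretch is chr6:52240855-52241104 on the minus strand, before the upstream end of the annotated gene.
Hoxd8: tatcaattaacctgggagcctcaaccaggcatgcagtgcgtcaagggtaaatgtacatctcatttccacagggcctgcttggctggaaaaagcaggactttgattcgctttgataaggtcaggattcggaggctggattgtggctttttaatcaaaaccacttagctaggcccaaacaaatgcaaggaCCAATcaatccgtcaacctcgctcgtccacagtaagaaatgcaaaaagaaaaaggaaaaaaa
Hoxd9: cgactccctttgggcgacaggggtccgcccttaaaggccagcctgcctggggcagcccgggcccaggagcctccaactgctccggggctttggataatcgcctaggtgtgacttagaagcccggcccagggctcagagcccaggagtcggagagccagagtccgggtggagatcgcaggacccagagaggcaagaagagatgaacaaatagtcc
Hoxa10: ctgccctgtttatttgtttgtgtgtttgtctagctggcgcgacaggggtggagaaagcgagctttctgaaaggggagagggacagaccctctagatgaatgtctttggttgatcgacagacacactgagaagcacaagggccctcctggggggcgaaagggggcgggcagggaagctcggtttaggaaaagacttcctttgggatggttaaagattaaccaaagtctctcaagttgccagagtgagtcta

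Both strands were searched for 4 motifs: CCAAT (the CCAAT box), TATAAA (the TATA box), TAATTA (a homeodomain core) and TGATNNAT (a site bound by PBX with a Hox protein). The *Hoxd8* stretch held 1 CCAAT box, 62 bases before the start, and the other stretches shown held none of the 4 motifs. *Hoxa10* had a second window, inside the annotated gene and not printed (chr6:52234940-52235189, minus strand), with a CCAAT box 64 bases and a TATAAA box 160 bases before a second start and 20 CG pairs. CCAAT was in a window of 14 of the 22 Hox genes and in 33.8% of all 32851 windows. TATAAA was in 4 of 22 and 12.4% of all, TGATNNAT in 4 of 22 and 7.7% of all, and TAATTA in 1 of 22 and 4.8% of all. The median number of CG pairs per window was 12.5 for the Hox genes and 6 for all windows. It was 6 in the window of *Hoxd8* and 13 in that of *Hoxd9*.

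Levels between genes were compared in TPM, which is scaled to the total of the pool and corrects for transcript length. Of the 39 Hox genes, 27 had a mean above 1 TPM over the 18 pools. The genes with the highest levels lay at numbers 6 to 10, while genes of lower number, such as *Hoxa2*, *Hoxb2* and *Hoxc4*, were also above 1 TPM. Summed over the clusters, the genes numbered 8 reached a mean of 260 TPM, those numbered 9 124 TPM, 6 84.7 TPM, 7 74.6 TPM and 10 66.3 TPM. The level dropped sharply between number 10 and number 11 in each cluster that has both. The 3 genes numbered 11, which act in early kidney formation, summed to 0.814 TPM, the 2 numbered 12 to 0.0353 TPM and the 4 numbered 13 to 0.404 TPM.

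**Figure D1:**
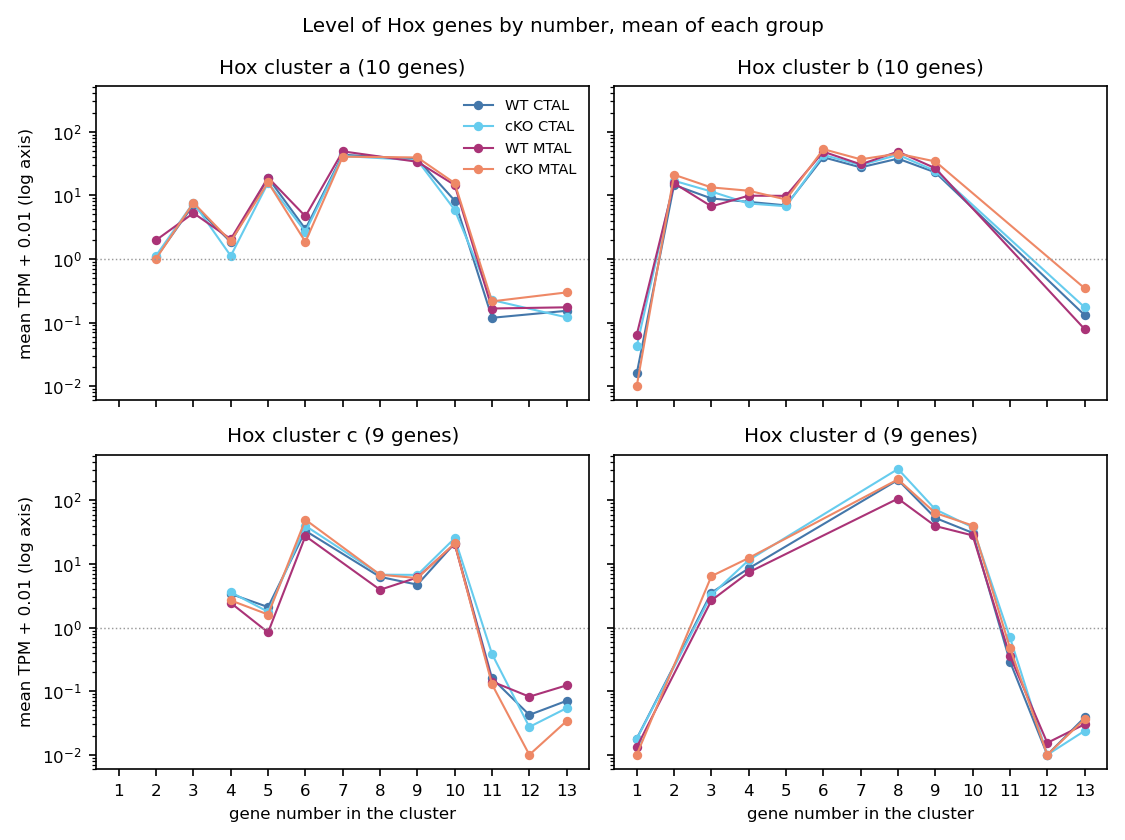
Mean level of the Hox genes reported by name (TPM plus 0.01, log axis) against its number, in 4 panels for clusters a to d. Points are means over 5 pools a group, and over 3 in cKO MTAL, and the dotted line marks 1 TPM. The groups peak between numbers 6 and 10 and fall below 1 TPM from number 11.

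*Hoxd8* was the most abundant Hox gene of the TAL, with a mean of 210 TPM and a range of 83.5 to 363 TPM over the pools. It made up 31.5% ± 3.58 (SD, n = 5) of the summed Hox TPM in WT CTAL, 38.2% ± 3.52 (n = 5) in cKO CTAL, 18.6% ± 1.96 (n = 5) in WT MTAL and 27.5% ± 3.51 (n = 3) in cKO MTAL. Its neighbours *Hoxd9* and *Hoxd10* followed in cluster d with means of 56.3 and 33.6 TPM. In cluster b the highest were *Hoxb6* (45.3 TPM), *Hoxb8* (43.5 TPM) and *Hoxb7* (30.6 TPM). In cluster a they were *Hoxa7* (44.0 TPM), *Hoxa9* (36.1 TPM) and *Hoxa5* (17.6 TPM), the last known for its part in lung development. In cluster c they were *Hoxc6* (36.2 TPM), *Hoxc10* (22.2 TPM) and *Hoxc9* (5.88 TPM), of which *Hoxc9* and *Hoxc10* are known from motor neurons of the spinal cord.

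Within each cluster, the remaining expressed genes were lower than the genes whose means are given above. *Hoxb9* came next in cluster b, with a mean of 26.15 TPM, which was above the means of *Hoxc10*, *Hoxa5* and *Hoxc9*. *Hoxb2*, *Hoxa10*, *Hoxb3*, *Hoxd4*, *Hoxb4*, *Hoxb5*, *Hoxa3* and *Hoxc8* had means between 5.84 and 16.6 TPM. *Hoxd3*, *Hoxa6*, *Hoxc4*, *Hoxa4*, *Hoxc5* and *Hoxa2* lay between 1.31 and 3.70 TPM. *Hoxd11* was at 0.445 TPM. *Hoxc11*, *Hoxa11*, *Hoxa13*, *Hoxb13*, *Hoxc13*, *Hoxc12*, *Hoxb1*, *Hoxd13*, *Hoxd1* and *Hoxd12* had means of 0.202 TPM or less. *Hoxd12* had 1 count in 1 pool and *Hoxd1* 4 counts in 4 pools.

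**Figure D2:**
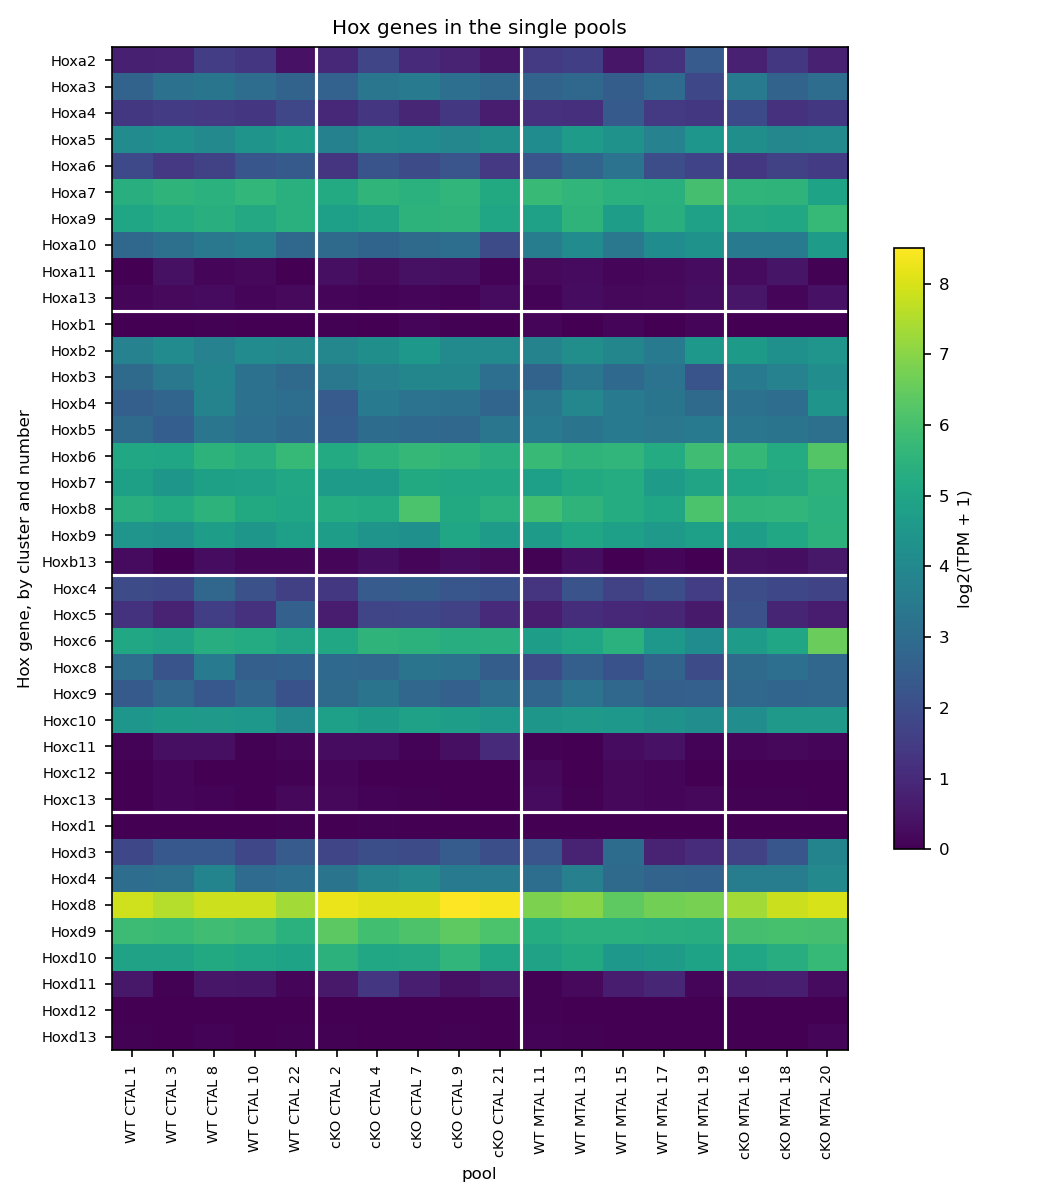
Heat map of log2(TPM + 1) for the Hox genes reported by name (rows, by cluster and number, white lines between clusters) in the 18 pools (columns, white lines between WT CTAL, cKO CTAL, WT MTAL and cKO MTAL). *Hoxd8* is the brightest row, from 83.5 TPM in WT MTAL pool 15 to 363 TPM in cKO CTAL pool 9, and the rows of genes numbered 11 to 13 are dark in every pool.

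Some of these loci overlap. *Hoxc5* spans *Hoxc6*, *Hoxc8*, *Hoxc9* and *Hoxc10* on the same strand, *Hoxa3* spans *Hoxa4*, *Hoxa5* and *Hoxa6*, and *Hoxd3* spans *Hoxd4*. The counts of these genes are uncertain, because reads shared between them could have been given to either. *Hoxd8* is overlapped over 3319 bases by the antisense gene *Hoxd3os1*, which was at 3.58 to 7.95 CPM in the pools while *Hoxd8* was at 95.02 to 313 CPM. *Hoxd9* and *Hoxa10* overlap no other annotated gene.

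The first comparison asked whether the Hox genes differ between the medullary and the cortical part of the normal TAL. Levels between pools are CPM on normalised library sizes, and genes that reached 3 CPM in 5 or more pools were tested, which left 23 of the 39 Hox genes among 11650 genes. *Hoxd8* and *Hoxd9* were less expressed in the medullary than in the cortical WT pools, and *Hoxa10* was more expressed. None of the 3 reached the log2 fold change of 1 that was asked for beside an adjusted p under 0.05, so that 0 Hox genes were called with edgeR's quasi-likelihood test, where 2.32% of all genes tested were. DESeq2 also called 0. By the adjusted p alone, 3 of 23 Hox genes passed, where 6.87% of all genes did. These were 1 upwards and 2 downwards, where 2.76% and 4.1% of all genes passed in these directions, and 8 of 23 had an unadjusted p under 0.05, where 19.1% of all did. The median absolute log2 fold change was 0.35 over the Hox genes tested and 0.15 over all genes tested.

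*Hoxd8* was at 226, 200, 207, 229 and 195 CPM in the WT CTAL pools and at 132, 121, 95.02, 117 and 137 CPM in the WT MTAL pools. The groups did not overlap, and the lowest cortical pool lay well above the highest medullary one. The mean was 211 ± 15.2 CPM (SD, n = 5) in the cortex and 120 ± 16.4 CPM (SD, n = 5) in the medulla, a log2 fold change of -0.82 (SE 0.094, adjusted p = 2.66e-05). *Hoxd9*, its neighbour and a member of the Abdominal-B class, was at 83.2, 85.4, 80.1, 77.6 and 70.5 CPM in WT CTAL and at 63.7, 61.3, 66.6, 59.9 and 65.5 CPM in WT MTAL. These groups did not overlap either, but the log2 fold change was smaller, -0.33 (SE 0.083, adjusted p = 0.0203). Of the 23 Hox genes tested, 2 did not overlap between the groups, both lower in WT MTAL, where 7.3% of all genes tested did not overlap and 4.09% did so downwards. In these bulk pools, fewer cells that express a gene and less RNA per cell cannot be told apart.

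*Hoxa10*, an Abdominal-B class gene known for its part in the uterus and the hind limb, was at 7.87, 10.6, 11.6, 12.9 and 7.34 CPM in WT CTAL and at 12.96, 18.4, 11.8, 23.3 and 24.2 CPM in WT MTAL. The groups overlapped, by 1 cortical pool that lay above the lowest medullary pool. The log2 fold change was 0.84 (SE 0.23, adjusted p = 0.0365). The *Hoxd8* difference kept an adjusted p of 0.000166 or less when any pool was left out. That of *Hoxd9* did not: its adjusted p was 0.0746, 0.0534 and 0.0511 without WT CTAL pools 1, 3 and 8. For *Hoxa10* the adjusted p was 0.108, 0.0596 and 0.0853 without WT CTAL pools 1, 3 and 22 and 0.0648, 0.0967 and 0.0956 without WT MTAL pools 13, 17 and 19.

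The pools with *Xist* and the markers of other cells also differed between these groups. Without the pools with *Xist*, which left 3 pools of WT CTAL and 1 of WT MTAL whose spread was taken from the others, the log2 fold change of *Hoxd8* was -0.87 (adjusted p = 0.0183), that of *Hoxd9* -0.39 (adjusted p = 0.0820) and that of *Hoxa10* 0.76 (adjusted p = 0.150). The summed level of 7 thin limb markers was 142 to 225 CPM in WT MTAL and 56.5 to 184 CPM in WT CTAL, with 5 of the 7 at a mean of 1 CPM or more in each group and *Sptssb* at 0 in every pool of WT CTAL. The summed TAL markers were also lower in WT MTAL than in WT CTAL without overlap, as *Hoxd8* and *Hoxd9* were. *Umod* was at a mean of 28700 CPM against 48790 CPM and *Egf* at 11270 CPM against 22660 CPM. *Slc12a1* (15510 against 14360 CPM) and *Ptger3* (914 against 777 CPM) went the other way, with higher means in WT MTAL. The part of the pools with *Xist* and of these markers in the result was not tested.

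The clusters did not lean the same way. In cluster d 0 of 5 tested genes had a positive log2 fold change in WT MTAL against WT CTAL, with a median of -0.33. In cluster b 7 of 8 were positive, with a median of 0.32, and none passed the adjusted p. *Hoxb5* came closest in that cluster, at 16.3 ± 1.85 CPM (n = 5) against 11.1 ± 2.32 CPM (n = 5), a log2 fold change of 0.53 (unadjusted p = 0.00783). In cluster a 4 of 5 were positive with a median of 0.10, and in cluster c 2 of 5 with a median of -0.24. The median over all genes tested was 0.015. These medians describe the clusters and were not tested.

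**Figure D3:**
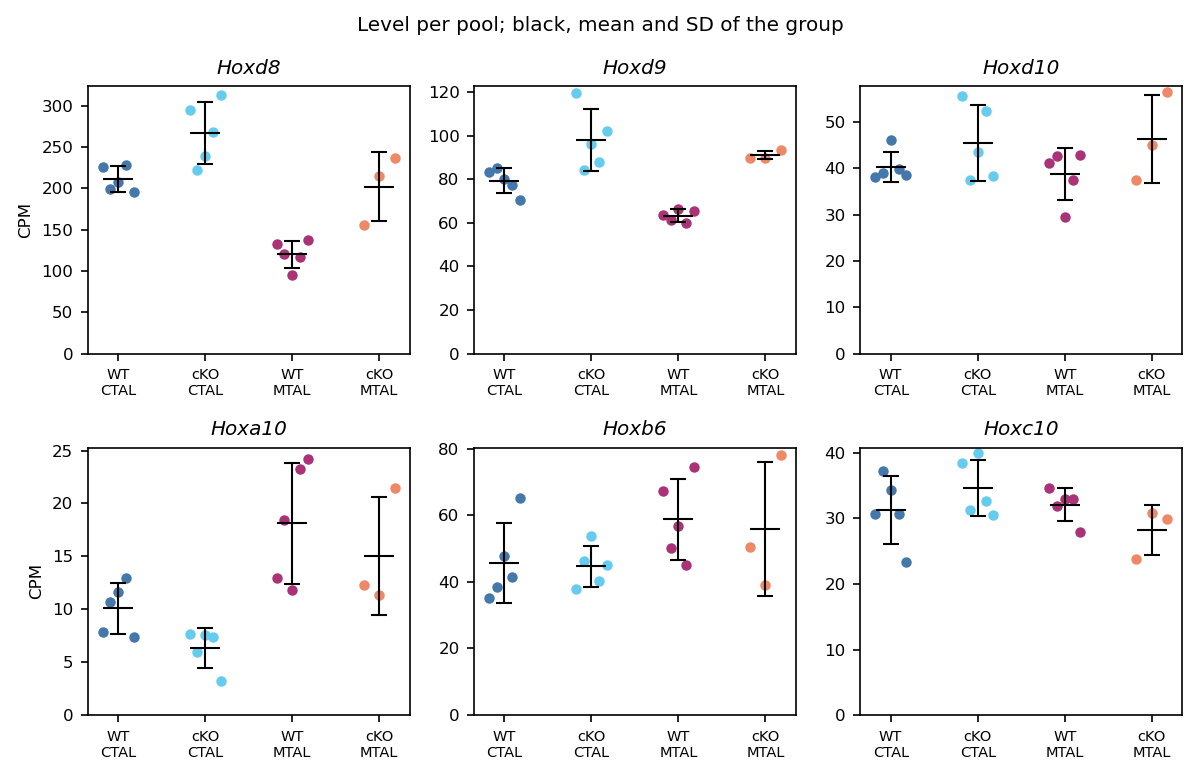
CPM per pool for 6 Hox genes, each in a panel with its own axis from 0. Points are single pools, 5 a group and 3 in cKO MTAL, and black marks are the mean and SD; WT MTAL is below every other group for *Hoxd8* (95.02 to 137 CPM) and *Hoxd9* (59.9 to 66.6 CPM), while for *Hoxd10*, *Hoxb6* and *Hoxc10* the groups overlap in every comparison made.

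The next comparison asked whether the deletion of *Cldn10* changed Hox genes in the MTAL. *Hoxd8* and *Hoxd9* were higher in the cKO pools than in the WT pools of the MTAL, and no tested Hox gene passed the adjusted p downwards, although 10 of 23 had a negative log2 fold change. With the fold threshold, 0 of 23 Hox genes tested were called by the quasi-likelihood test and 0 by DESeq2, where 3.74% of the 12060 genes tested were called by the former. By the adjusted p alone 2 of 23 passed, both upwards, where 4.44% of all genes passed upwards, 2.57% downwards and 7.01% in either direction. An unadjusted p under 0.05 was reached by 4 of 23, all upwards and all in cluster d, where 23.6% of all genes reached it.

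*Hoxd8* was at 155, 214 and 237 CPM in the 3 cKO MTAL pools, all above the 5 WT MTAL pools. The mean was 202 ± 42.2 CPM (n = 3) against 120 ± 16.4 CPM (n = 5), a log2 fold change of 0.80 (SE 0.14, adjusted p = 0.00314). *Hoxd9* was at 90.1, 89.9 and 93.3 CPM in cKO MTAL, a tight group that lay above every pool of WT MTAL. Its log2 fold change was 0.57 (SE 0.11, adjusted p = 0.00688). Of the 23 Hox genes tested, these 2 had groups that did not overlap, both upwards, where 15% of all genes tested did not overlap, 5.61% upwards and 9.41% downwards. Below the filter, *Hoxa6* lay at 0.986 to 1.23 CPM in cKO MTAL and at 1.58 to 5.54 CPM in WT MTAL, also without overlap. For genes below the filter, in this and the other comparisons, the share of all genes without overlap was not computed.

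The other members of cluster d had positive values without passing the adjusted p. *Hoxd4* was at 16.1 ± 3.67 CPM (n = 3) in cKO MTAL and 9.52 ± 3.64 CPM (n = 5) in WT MTAL, a log2 fold change of 0.81 (adjusted p = 0.122). *Hoxd3* was at 4.65, 7.89 and 28.6 CPM in cKO MTAL and at 7.33, 1.63, 10.7, 1.86 and 2.80 CPM in WT MTAL. Its highest value came from cKO MTAL pool 20, the pool with the most principal cell marker RNA, whose part in this value was not tested, and its log2 fold change of 1.55 had an adjusted p of 0.143. *Hoxd10* had a log2 fold change of 0.31 (adjusted p = 0.297). All 5 tested genes of cluster d were positive, with a median of 0.80, against 1 of 5 in cluster a (median -0.22), 5 of 8 in cluster b (median 0.12) and 2 of 5 in cluster c (median -0.04).

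The pools that stood apart bear on this comparison. Without cKO MTAL pool 20 the log2 fold changes were 0.67 for *Hoxd8* (adjusted p = 0.0224) and 0.56 for *Hoxd9* (adjusted p = 0.0227). Of the WT MTAL pools 4 of 5 held *Xist*, and none of cKO MTAL did. With the pools that held *Xist* left out, 1 WT MTAL pool remained, and the values were 0.77 for *Hoxd8* and 0.60 for *Hoxd9*. With a term for the pools with *Xist* they were 0.78 and 0.61. Both fits set cKO MTAL against that 1 WT MTAL pool, so that they had to give like sizes. Genotype and the presence of *Xist* cannot be told apart with these pools. Thin limb markers summed to 112 to 153 CPM in cKO MTAL and 142 to 225 CPM in WT MTAL, and 8 endothelial markers to 167 to 275 CPM and 302 to 475 CPM, each at a mean of 1 CPM or more. The TAL markers summed to 68180 to 78740 CPM in cKO MTAL and to 50640 to 63640 CPM in WT MTAL, again without overlap. *Umod* was at a mean of 44020 CPM against 28700 CPM and *Egf* at 12170 CPM against 11270 CPM. *Slc12a1* (13180 against 15510 CPM) and *Ptger3* (627 against 914 CPM) went the other way, each without overlap. The part of all these markers in the result was not tested.

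**Figure D4:**
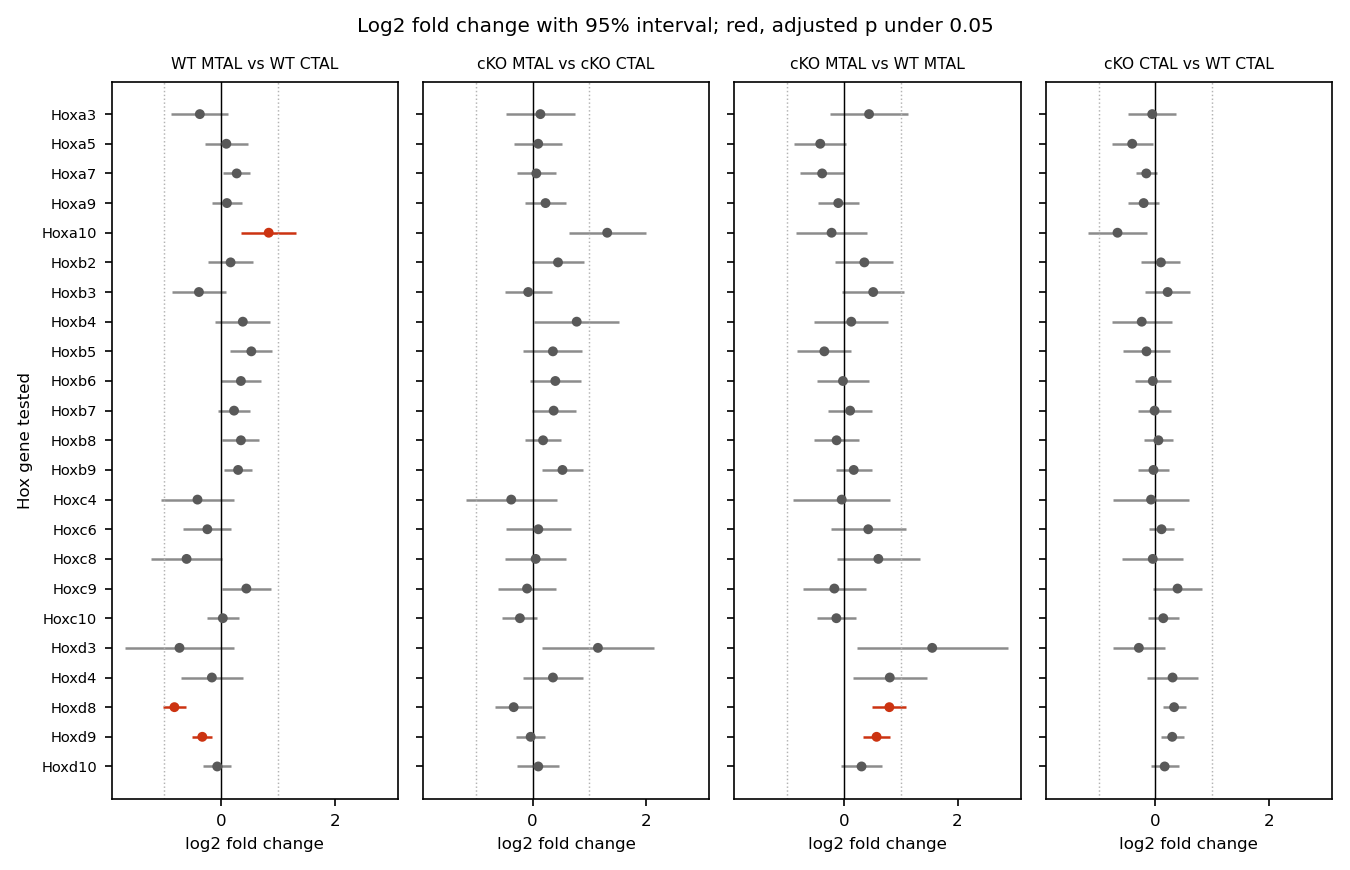
Log2 fold change (x axis) with its 95% interval for the 23 Hox genes tested in all comparisons (rows), in 4 panels for WT MTAL vs WT CTAL, cKO MTAL vs cKO CTAL, cKO MTAL vs WT MTAL and cKO CTAL vs WT CTAL. Red marks an adjusted p under 0.05 and dotted lines a log2 fold change of 1 in either direction; *Hoxd8* is red at -0.82 in the first panel and at 0.80 in the third.

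In the CTAL the genotype log2 fold changes of *Hoxd8* and *Hoxd9* were smaller in size than in the MTAL. That of *Hoxa10* was larger in size (-0.67 against -0.22). None of these differences between the parts passed the adjusted p, as given below. The filter again left 23 Hox genes, among 11702 genes tested. None was called with or without the fold threshold by the quasi-likelihood test, where 0.47% and 1.22% of all genes were (0.658% upwards by the adjusted p alone), and 4 of 23 had an unadjusted p under 0.05, where 11.8% of all did. *Hoxd8* was at 295, 222, 239, 268 and 313 CPM in cKO CTAL, and only the lowest of these pools fell within the range of WT CTAL. The mean was 267 ± 37.6 CPM (n = 5) against 211 ± 15.2 CPM (n = 5), a log2 fold change of 0.33 (95% interval 0.13 to 0.53, adjusted p = 0.123). DESeq2 gave this gene the same value with an adjusted p of 0.0345, and limma on log2(TPM + 1) gave 0.58 with an adjusted p of 0.0469. *Hoxd9* was at 120, 84.2, 96.4, 87.9 and 102 CPM in cKO CTAL, a log2 fold change of 0.30 (adjusted p = 0.192).

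*Hoxa10* was at 7.68, 5.96, 7.58, 7.40 and 3.20 CPM in cKO CTAL, which overlapped the WT CTAL pools only at their low end. Its log2 fold change was -0.67 (95% interval -1.18 to -0.15, adjusted p = 0.258). *Hoxa5* was at 17.6 ± 3.21 CPM (n = 5) against 23.2 ± 5.52 CPM (n = 5), with a log2 fold change of -0.41 (adjusted p = 0.344). All 5 tested genes of cluster a were negative, with a median of -0.21, and 4 of 5 of cluster d positive, with a median of 0.30. The groups overlapped for each of the 23 Hox genes tested, and did not for 3.13% of all genes tested (1.9% upwards and 1.23% downwards). Below the filter, *Hoxa4* lay at 0.5499 to 1.35 CPM in cKO CTAL and at 1.42 to 2.66 CPM in WT CTAL, without overlap.

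Between the parts of the cKO TAL, no Hox gene passed the adjusted p with the quasi-likelihood test. The fold and p thresholds together called 0.938% of the 12044 genes tested, the adjusted p alone 1.75% (1.12% upwards), and 5 of 23 Hox genes had an unadjusted p under 0.05, where 17.7% of all did. *Hoxa10* was at 12.3, 11.3 and 21.4 CPM in cKO MTAL, each above the highest cKO CTAL pool. It was the only 1 of 23 without overlap, where 10.8% of all genes had none, and 3.49% of all genes had none and were higher. Its log2 fold change was 1.31 (95% interval 0.63 to 1.995, adjusted p = 0.0595). DESeq2 called this gene, with an adjusted p of 0.00250. Without cKO MTAL pool 20, which had its highest value, the log2 fold change was 0.95 (adjusted p = 0.158), and without pool 18 it was 1.503 (adjusted p = 0.0188). *Hoxd8* had a log2 fold change of -0.33 (95% interval -0.66 to -0.01, adjusted p = 0.272) and *Hoxd9* one of -0.03 (95% interval -0.30 to 0.23, adjusted p = 0.908).

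Set beside the normal CTAL, cKO MTAL had *Hoxd8* at nearly the same level, with a log2 fold change of -0.03 and a 95% interval from -0.29 to 0.24 (adjusted p = 0.929). No Hox gene of 23 was called or passed the adjusted p with the quasi-likelihood test or with DESeq2, where 1.21% and 2.5% of the 12024 genes did with the former (0.865% downwards by the adjusted p alone). An unadjusted p under 0.05 was reached by 5, all upwards, where 20% of all genes reached it. *Hoxd9* was above WT CTAL in every cKO MTAL pool, the only tested Hox gene without overlap, where 12% of all genes had none (4.51% upwards and 7.51% downwards), with a log2 fold change of 0.24 (adjusted p = 0.202). Below the filter, *Hoxb13* lay at 0.395 to 0.754 CPM in cKO MTAL and at 0 to 0.376 CPM in WT CTAL. In cKO CTAL it lay at 0.163 to 0.392 CPM, also below cKO MTAL, and it had at most 23 counts in any pool. The comparison of cKO MTAL with WT CTAL shares its pools with the others, so that its values are not independent of theirs.

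The interaction term asked whether the genotype difference was larger in the MTAL than in the CTAL. It was 0.45 for *Hoxd8* on the log2 scale (95% interval 0.10 to 0.81, unadjusted p = 0.0151, adjusted p = 0.209) and 0.26 for *Hoxd9* (adjusted p = 0.386). For *Hoxa10* it was 0.43 (adjusted p = 0.656). None of the 24 Hox genes tested passed the adjusted p with the quasi-likelihood test or with DESeq2, where 0.286% of 12586 genes passed with the former, and 2 had an unadjusted p under 0.05, where 14.7% of all did. A different genotype effect in the parts of the TAL was therefore not shown for any Hox gene.

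Summed over its genes, cluster d was the most abundant cluster in all groups but WT MTAL, where cluster b was. Cluster d summed to 306 ± 41.5 TPM (n = 5) in WT CTAL, 437 ± 47.0 TPM (n = 5) in cKO CTAL, 185 ± 20.6 TPM (n = 5) in WT MTAL and 337 ± 64.2 TPM (n = 3) in cKO MTAL. The highest WT MTAL pool, at 216 TPM, lay below the lowest pool of any other group, which was a WT CTAL pool at 245 TPM. Cluster a lay between 91.3 and 150 TPM, cluster b between 144 and 270 TPM and cluster c between 44.1 and 132 TPM. In cluster b the cKO MTAL pools (199 to 270 TPM) lay above the WT CTAL pools (144 to 191 TPM), and the other groups of clusters a, b and c overlapped. These sums are descriptions and were not tested, and *Hoxd8* made up most of the sum of cluster d.

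**Figure D5:**
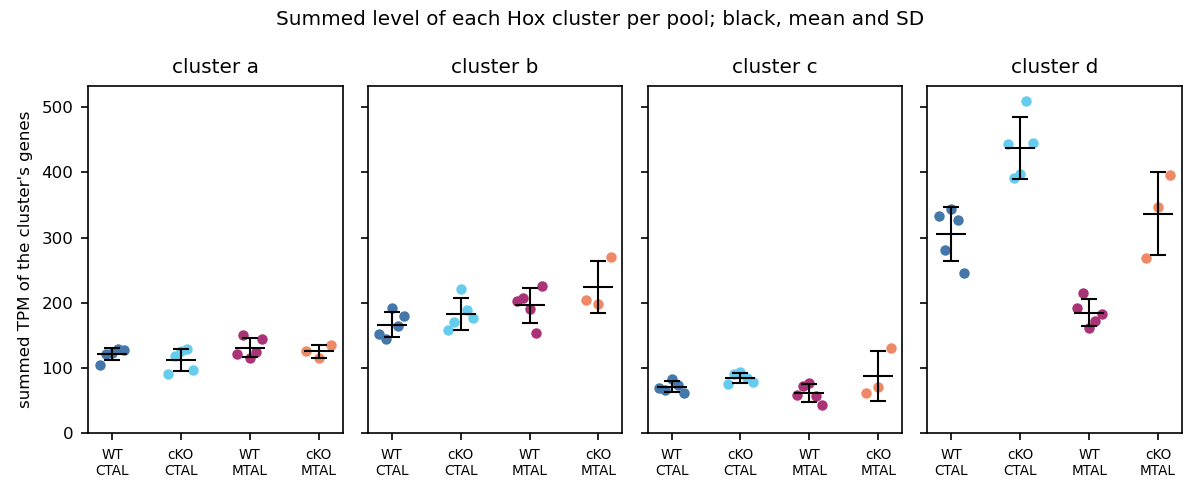
Summed TPM of the genes of each Hox cluster (4 panels, shared axis from 0) per pool, 5 a group and 3 in cKO MTAL, with the mean and SD in black. In cluster d the WT MTAL pools (162 to 216 TPM) lie below every other pool, and in cluster b the cKO MTAL pools lie above those of WT CTAL.

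The opposite-strand gene *Hoxb5os*, which overlaps *Hoxb5* and *Hoxb6*, had a larger log2 fold change between WT MTAL and WT CTAL than any Hox gene tested there. It was at 11.02, 10.3, 13.98, 11.2 and 14.9 CPM in WT CTAL and at 5.81, 4.75, 3.52, 3.35 and 1.78 CPM in WT MTAL. The groups did not overlap, and the log2 fold change was -1.69 (SE 0.27, adjusted p = 0.000826). In cKO MTAL it was at 7.75, 7.65 and 10.96 CPM, above every WT MTAL pool, with a log2 fold change of 1.24 against WT MTAL (adjusted p = 0.0682). *Hoxb6* on the other strand was at 58.8 ± 12.2 CPM (n = 5) in WT MTAL and 45.7 ± 11.9 CPM (n = 5) in WT CTAL. *Hoxb3os*, named after its values were seen, overlaps *Hoxb2* and *Hoxb3* and was lower in cKO MTAL (2.83 ± 0.542 CPM, n = 3) than in WT MTAL (8.77 ± 3.76 CPM, n = 5), with a log2 fold change of -1.57 (adjusted p = 0.0311). The library kit keeps the strand, but whether the counting used it is not stated, so reads of such pairs may have been mixed.

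Few genes of the lists that act with or upstream of the Hox genes passed the adjusted p, and few of all genes did. These lists were chosen with results of these data known. The share of all genes past the adjusted p was 6.87% in WT MTAL against WT CTAL and 7.01% in cKO MTAL against WT MTAL. For cKO MTAL against WT CTAL it was 2.5%. Of 11 TALE cofactors, 8 were tested. *Meis2*, which encodes a cofactor that binds DNA beside Hox proteins, was lower in the cKO than in the WT pools of the MTAL (4.26 ± 1.44 CPM, n = 3, against 11.9 ± 3.21 CPM, n = 5), with a log2 fold change of -1.43 (adjusted p = 0.0212). It was also below WT CTAL there (log2 fold change -1.43, adjusted p = 0.0334), and no other cofactor passed in any comparison. Of 25 Polycomb and trithorax genes, 23 or 24 were tested and 1 passed in any comparison. This was 1 of 23 in WT MTAL against WT CTAL, where 6.87% of all genes passed. That gene was *Bmi1*, of the Polycomb complex that marks histone H2A, at 57.2 ± 4.31 CPM (n = 5) in WT MTAL and 45.4 ± 2.19 CPM (n = 5) in WT CTAL (log2 fold change 0.33, adjusted p = 0.0379). Of 18 genes of retinoic acid and Cdx inputs, 7 to 9 were tested and 1 passed. It was 1 of 8 in cKO MTAL against WT MTAL, where 7.01% of all genes passed. *Aldh1a1*, a retinaldehyde dehydrogenase, was at 32.1 ± 13.1 CPM (n = 3) in cKO MTAL and 12.4 ± 5.26 CPM (n = 5) in WT MTAL (log2 fold change 1.42, adjusted p = 0.0146).

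Of 31 other transcription factors of nephron segments, 22 to 24 were tested. In WT MTAL against WT CTAL 3 of 22 passed the adjusted p, where 6.87% of all genes did, *Pou3f3* upwards (log2 fold change 0.27, adjusted p = 0.0447) and *Foxq1* and *Tfcp2l1* downwards. *Foxq1*, a forkhead factor, was at 20.6 ± 3.12 CPM (n = 5) in WT MTAL and 97.1 ± 21.97 CPM (n = 5) in WT CTAL, a log2 fold change of -2.25 (adjusted p = 1.13e-07). *Tfcp2l1*, a grainyhead-like factor of the distal nephron, had a log2 fold change of -0.93 (adjusted p = 0.000628). In cKO MTAL against WT MTAL 5 of 23 passed, 3 upwards and 2 downwards, where 4.44% and 2.57% of all genes did. The largest were *Foxq1* (log2 fold change 1.83, adjusted p = 4.76e-05), *Tfcp2l1* (1.03, adjusted p = 0.00109) and the Iroquois factor *Irx3* (0.78, adjusted p = 0.0238). *Foxq1* was also the 1 of 24 past the adjusted p in the interaction, where 0.286% of all genes were, with a value of 1.88 on the log2 scale (adjusted p = 0.00121). None of this list passed in the other 3 comparisons.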

How the data were processed

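Per the labels and the study's methods, strand-specific libraries were made from microdissected tubules, reads were checked with FastQC, trimmed, and mapped with DRAGEN to mm10 with GENCODE genes. The trimmer differs between the sources, and whether counting used the strand is not given in the sources used here. The authors deposited expected counts per gene (estimated counts, of which 6.26% to 9.53% of genes per pool were not whole) and TPM. The estimated counts deposited were rounded to whole numbers for the count tests, in place of the raw counts the design had assumed. The TPM deposited by the authors were used for levels between genes.

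Each comparison was fitted across all genes with edgeR 4.0.16 (R 4.3.3, glmQLFit and glmQLFTest, TMM factors 0.919 to 1.08) on its own groups, and the interaction on all 4, with Benjamini-Hochberg adjustment over all genes tested. Genes had to reach 3 CPM in 5 pools, or in 3 where cKO MTAL took part. Calls needed a log2 fold change of 1 or more in size together with an adjusted p below 0.05. The fits were tested on simulated data. Alternatives were DESeq2 1.42.0, limma 3.58.1 on log2(TPM + 1), RLE factors, no filter, one fit of 4 groups, the adjusted p alone, WT CTAL pool 1 as cKO, the pools with *Xist* left out or given a term, and leaving out each pool. Tables and figures used Python 3.11.15, pandas 2.3.3 and matplotlib 3.10.9.

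Full values are given for Hox genes past the adjusted p in any comparison and levels for the 3 highest in TPM per cluster. Other Hox genes are given by range and count, at most 3 genes per comparison are named from each other list, and an antisense gene is named where it overlaps a named Hox gene. Further Hox genes near the threshold were named after their values were seen. The members, the 4 other gene lists and the marker lists were chosen with earlier results of these data known. Totals of 10824328 to 62339991 counts per pool set the precision. No replicate pair agreed within sampling noise. Each pool came from a different mouse, per the study's methods. The pools the study excluded were not analysed here. The values of 1 Hox gene are not reported here by name; it stays in the counts and the cluster sums.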

Additional observations from a re-analysis of the deposited data

Results flagged for a closer look

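In WT CTAL pool 8, the deepest pool with 62339991 counts, 3 Hox genes lay far from the other 4 pools of the group. *Hoxc4* was at 9.13 CPM and the next pool at 4.98 CPM, *Hoxd4* at 15.6 CPM with the next at 10.1 CPM, and *Hoxd10* at 46.1 CPM with the next at 39.8 CPM. For each, the gap to the next pool was 0.729, 0.723 and 0.781 of the range of the group. In all 72 groups of pools were examined, and chance marks about 1 in 20 of them.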

How the results depend on the processing

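The count of Hox genes past both thresholds was 0 in every comparison with the main edgeR fit, but not with every other setting of edgeR. In WT MTAL against WT CTAL it was 3 by the adjusted p alone. The fit of this comparison without the pools with *Xist* left 1 WT MTAL pool, and its count is not given. The count past the adjusted p, 3, was 1 with limma on TPM, 1 with a term for the pools with *Xist* and 1 to 3 when single pools were left out. Between cKO MTAL and cKO CTAL both counts were 1 (*Hoxa10*) with DESeq2, with no filter, with one fit of 4 groups and with WT CTAL pool 1 as cKO, and 0 to 1 when single pools were left out. In cKO MTAL against WT MTAL the count past both was 2 by the adjusted p alone, 1 with no filter, 1 with one fit of 4 groups and 0 to 1 when single pools were left out, and the count past the adjusted p, 2, was 0 without the pools with *Xist* and 0 with a term for them. In cKO CTAL against WT CTAL the count past the adjusted p was 1 with DESeq2 and 1 with limma on TPM. Values near 0 changed sign. *Hoxd9* between cKO MTAL and cKO CTAL was 0.0437 on the log2 scale without the pools with *Xist* and 0.0436 with a term for them, 7e-04 with WT CTAL pool 1 as cKO, and -0.0826 to 0.0437 when single pools were left out. *Hoxa10* in cKO MTAL against WT MTAL was 0.0242 with limma on TPM. *Hoxd8* in cKO MTAL against WT CTAL was 0.0168 with limma on TPM and -0.15 to 0.12 when single pools were left out. The causes were not tested. By CPM in place of TPM, 28 Hox genes had a mean above 1 and not 27. No paired analysis was possible because the groups share no replicate numbers and each pool came from a different mouse. The fit without a filter also tested the Hox genes below it.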

Other observations

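A few Hox genes stood high in single pools. In cKO MTAL pool 20 *Hoxd3* was at 28.6 CPM, against 1.63 to 10.7 CPM in the other 17 pools. *Hoxc6* was at 56.9 CPM in that pool and at 15.9 to 42.5 CPM in the others, and *Hoxb4* at 34.3 CPM against 8.03 to 25.1 CPM. *Hoxc11* was at 1.65 CPM in cKO CTAL pool 21 and at 0.021 to 0.572 CPM elsewhere. *Hoxa2* was at 6.26 CPM in WT MTAL pool 19 and at 0.404 to 2.79 CPM elsewhere.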
